A study of Mus musculus with 2 samples.

Results

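Microglia, the resident macrophages of the brain, were followed through 10 genes that mark them: C1qa, C1qb, C1qc, Csf1r, Cx3cr1, P2ry12, Tmem119, Ctss, Tyrobp and Trem2. The members were taken by gene name from the transcript tables of both libraries, and all 10 had reads in both, among 18907 annotated genes with a read in either library. The tissue was left cerebral cortex from B6NCrl mice aged 6 months, with no treatment or genetic change in the labels, and its RNA was read in 2 long-read libraries labelled as biological replicates of 1 group. Both tissue samples carried 1 donor record, and the labels do not state separate animals, so the spread between the libraries may be technical. One label field calls the tissue male and another says that sex was not collected. Replicate 1 held 1306424 reads and replicate 2 held 1304133 reads, so a read was worth 0.765 and 0.767 CPM (reads per 1e+06 reads of the library). For a gene with no read the limit was 3 counts, or 2.30 CPM. Intervals and such limits cover counting error only. Coordinates refer to mouse build mm10 with GENCODE M21 gene models.

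Microglia survey the cortex with motile processes, clear debris and synapses, and depend on signalling through the receptor of colony stimulating factor. They are the main source in brain of C1q, the recognition molecule of the classical complement pathway, which is built from equal numbers of A, B and C chains. P2ry12 senses nucleotides released from damaged cells, Cx3cr1 binds the neuronal chemokine fractalkine, and Trem2 binds lipids and apolipoproteins and signals through the adaptor that Tyrobp encodes. In bulk tissue a lower level can mean fewer microglia or less RNA in each, and these cannot be told apart.

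The 10 genes ranged from 19.2 CPM for Cx3cr1 to 184 CPM for C1qa. Together they took 1040 and 1066 reads in replicates 1 and 2, or 807 ± 15.1 CPM (SD, n = 2). The 3 C1q genes held 55.8% of these reads in replicate 1 and 55.9% in replicate 2. The order of mean CPM ran from C1qa through C1qb, Ctss, C1qc, P2ry12, Tyrobp, Csf1r, Trem2 and Tmem119 to Cx3cr1. Of the 9 neighbouring pairs in this order, 6 had ranges over the 2 libraries that did not overlap. The pairs C1qb with Ctss, Tyrobp with Csf1r, and Csf1r with Trem2 overlapped. These ranges leave out counting error, and no difference between members was tested. Ctss and C1qc did not overlap by range, though their reads in replicate 2 were 159 and 156. Where reads were equal in both libraries, as for C1qc, Trem2 and Cx3cr1, the SD is very small and does not measure counting error. A long read counts a molecule once whatever its length, so these CPM values are per molecule read and are not divided by length. Dividing them by the length of the leading annotated transcript gives CPM per kilobase, which is not a level of molecules. These values were 177 for C1qa, 135 for C1qb, 99.3 for C1qc, 98.9 for Ctss and 66.1 for Tyrobp. Lower values were 31.0 for Trem2, 12.6 for Tmem119, 8.23 for Csf1r and 5.10 for Cx3cr1. The per-length value of P2ry12, 102 CPM per kilobase, rested on a leading transcript of only 619 bases. In the plot of levels by library the C1q genes and Ctss form the upper group, and every gene lies above the level of 3 counts.

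**Figure D1:**
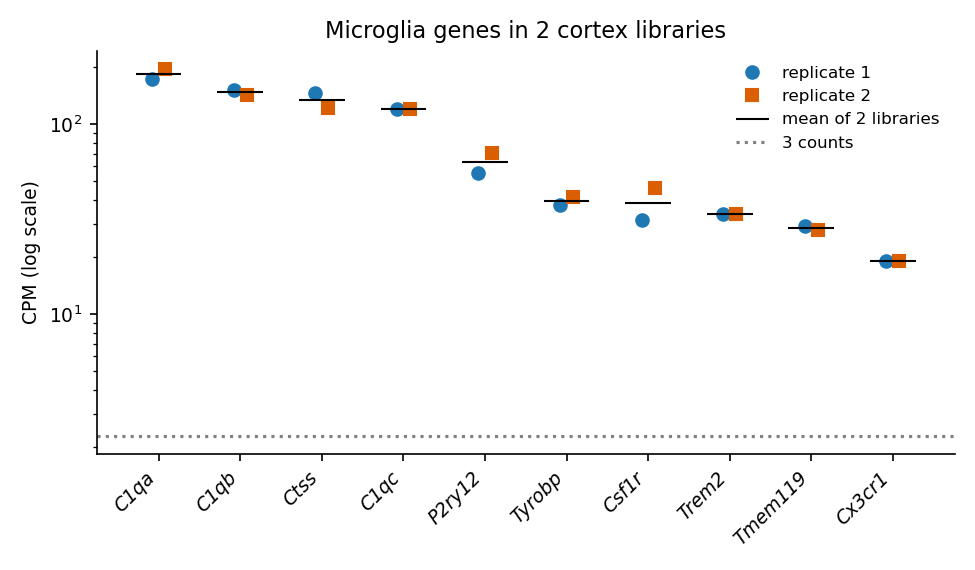
Level of each of the 10 microglia genes in CPM on a log scale, with a circle for replicate 1, a square for replicate 2, a line at the mean and a dotted line at 3 counts (2.30 CPM). Means fall from 184 CPM for C1qa to 19.2 CPM for Cx3cr1, and P2ry12 and Csf1r show the widest gaps between the libraries on this scale.

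The C1q genes lay side by side on chromosome 4, within 18675 bases at chr4:136880129-136898803 and all on the minus strand. Each chain of C1q carries a collagen-like stem, written in the coding sequence as a codon for glycine followed by 2 other codons, over and over. A stretch of each stem is shown because the stems are the shared feature by which the chains assemble. Every complete C1qa, C1qb or C1qc read holds its stretch. A search for the longest unbroken run of such triplets, each opened by a codon that starts with GG, found codons 62 to 109 of 245 in C1qa-201 (exon 3 of 3, chr4:136896565-136896708), codons 31 to 117 of 253 in C1qb-201 (exons 2 and 3 of 3, chr4:136880700-136882217 with the intron between them removed) and codons 68 to 115 of 246 in C1qc-201 (exon 3 of 3, chr4:136890439-136890582). The sequences come from the GENCODE M21 transcripts, are written 5′ to 3′ on the minus strand, and have each glycine codon of the run in capitals.
C1qa: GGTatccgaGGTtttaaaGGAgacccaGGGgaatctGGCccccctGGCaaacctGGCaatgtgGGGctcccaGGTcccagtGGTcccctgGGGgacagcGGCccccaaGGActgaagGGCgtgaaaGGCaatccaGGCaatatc
C1qb: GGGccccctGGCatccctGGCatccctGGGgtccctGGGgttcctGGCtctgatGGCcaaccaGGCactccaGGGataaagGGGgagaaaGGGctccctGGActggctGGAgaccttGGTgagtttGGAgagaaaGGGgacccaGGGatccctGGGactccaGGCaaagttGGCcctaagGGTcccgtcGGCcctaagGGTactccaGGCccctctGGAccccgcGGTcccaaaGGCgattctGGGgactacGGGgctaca
C1qc: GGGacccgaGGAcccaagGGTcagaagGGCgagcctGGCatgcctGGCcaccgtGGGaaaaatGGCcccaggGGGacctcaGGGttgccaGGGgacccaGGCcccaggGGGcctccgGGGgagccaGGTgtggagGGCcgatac
The run held 29 triplets in C1qb and 16 each in C1qa and C1qc. It is the longest unbroken run only, and the length of the whole stem was not measured. Codons that start with GG numbered 39 in C1qa, 40 in C1qb and 39 in C1qc over the whole coding sequence.

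C1qa, the A chain, had 226 and 254 reads in replicates 1 and 2, or 184 ± 15.4 CPM (SD, n = 2), and ranked 958 among annotated genes. C1qb, the B chain, had 198 and 186 reads, or 147 ± 6.32 CPM. C1qc, the C chain, had 156 reads in each library, or 120 ± 0.148 CPM. Counted on all reads, C1qa was the highest and C1qc the lowest of the 3 in both libraries, and their values did not overlap. On annotated transcripts alone, C1qa had 173 reads in replicate 1 and 205 in replicate 2, and C1qb had 192 and 175. By that count C1qb was above C1qa in replicate 1, and the order of the C1q genes was not tested. Over all reads, the ratio of C1qa to C1qb reads was 1.14 in replicate 1 and 1.37 in replicate 2. The ratio of C1qa to C1qc reads was 1.45 and 1.63, and that of C1qb to C1qc reads was 1.27 and 1.19. All 3 ratios were above 1 in both libraries, and the first 2 were higher in replicate 2 than in replicate 1.

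Ctss (chr3:95526786-95556403, plus strand) encodes cathepsin S, a lysosomal protease that works at neutral pH and trims the invariant chain in antigen presentation. It had 191 and 159 reads, or 134 ± 17.2 CPM (SD, n = 2), a level between those of C1qb and C1qc by its mean. Its value was 146 CPM in replicate 1 and 122 CPM in replicate 2, against 119 and 120 CPM for C1qc, so Ctss was above C1qc in both. In replicate 2 the reads were 159 for Ctss and 156 for C1qc, and the order of these genes was not tested.

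P2ry12 (chr3:59216272-59262871, minus strand), the nucleotide receptor, had 72 and 92 reads in replicates 1 and 2, or 62.8 ± 10.9 CPM (SD, n = 2). Csf1r (chr18:61100598-61132149, plus strand), the receptor tyrosine kinase for CSF1 and IL-34 on which microglia survive, had 41 and 60 reads, or 38.7 ± 10.3 CPM. Cx3cr1 (chr9:119901616-120069879, minus strand), the fractalkine receptor, had 25 reads in each library, or 19.2 ± 0.0238 CPM. Both P2ry12 and Csf1r were higher in replicate 2, and Cx3cr1 was the lowest of the 10 genes in both libraries.

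Trem2 (chr17:48346401-48354147, plus strand) had 44 reads in each library, or 33.7 ± 0.0418 CPM (SD, n = 2). Tyrobp (chr7:30413760-30417585, plus strand), which encodes the signalling adaptor DAP12 of Trem2 and other receptors, had 49 and 54 reads, or 39.5 ± 2.76 CPM. Adaptor reads outnumbered Trem2 reads in both libraries. Tmem119 (chr5:113793729-113800516, minus strand), a membrane protein used to tell microglia from other brain macrophages, had 38 and 36 reads, or 28.3 ± 1.05 CPM. These 3 genes held to within 5 reads between the libraries.

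None of the 10 genes was called different between the libraries. The test was an exact two-sided binomial test of the counts against the library totals, with Benjamini-Hochberg adjustment over 11838 genes, and a call needed an adjusted p under 0.05 and a ratio of at least 2 in either direction. The background was 7.05% of all genes called, 5.44% lower and 1.61% higher in replicate 2. At an unadjusted p under 0.05 the members again gave 0 of 10, against 22.8% of all genes. The largest ratio was that of Csf1r, 1.47 from replicate 1 to replicate 2 (95% exact interval 0.969 to 2.24; adjusted p = 0.246). The ratio was 1.28 for P2ry12 (0.930 to 1.77; adjusted p = 0.379 by the exact test) and 1.13 for C1qa (0.937 to 1.35; adjusted p = 0.515 by the exact test). Ctss was the lowest at 0.834 (0.671 to 1.03; adjusted p = 0.338 by the exact test). The intervals of C1qa, C1qb, C1qc and Ctss were the narrowest. Only the interval of Csf1r reached past a ratio of 2, so a difference of that size was not excluded by its reads. The median log2 ratio of the members was 0.0025, with 7 above and 3 below 0, and that of all genes tested was also 0.0025. C1qc, Trem2 and Cx3cr1, with equal reads in both libraries, took the other sign (-0.02) under TMM scaling. Counted on annotated transcripts alone, the log2 ratio was -0.79 for Cx3cr1 (adjusted p = 0.524 by the exact test), 0.07 for Csf1r in place of 0.55 (adjusted p = 0.989 by the exact test) and -0.52 for Ctss (adjusted p = 0.0157 by the exact test), the last short of a call by its size only. Among 5656 genes with total counts from 50 to 480, the range of the members, the median absolute log2 ratio was 0.298, against 0.114 in the members, and 9.18% were called. These genes share only the range of counts with the members, not their distribution within it, so the medians are not compared at equal depth.

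**Figure D2:**
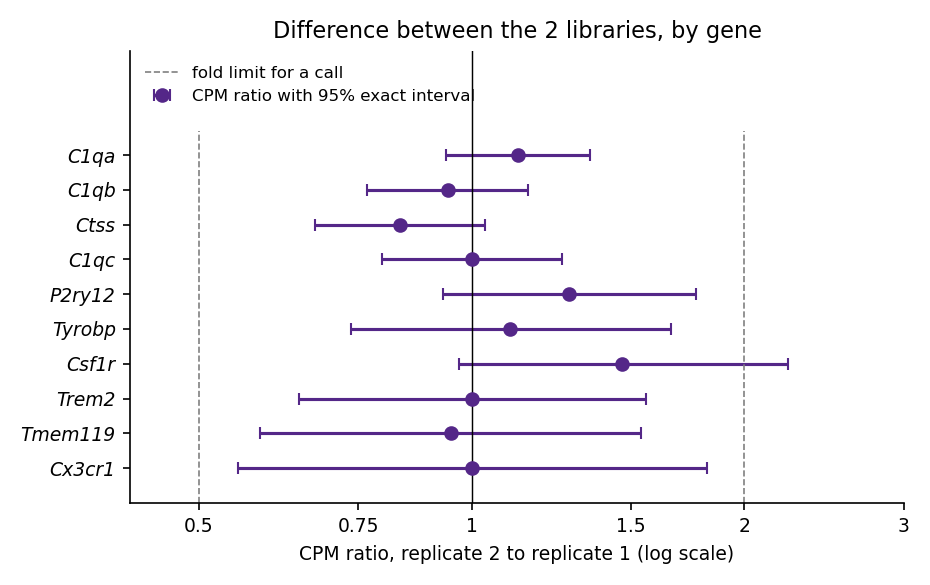
Ratio of CPM in replicate 2 to replicate 1 for each microglia gene on a log scale, with 95% exact intervals from the binomial counts and dashed lines at the limits for a call. All 10 intervals include 1, and only that of Csf1r (0.969 to 2.24) crosses a ratio of 2.

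Most reads of the members followed an annotated splice pattern from the first intron to the last. Such complete chains made up 85.3% of member reads in replicate 1 (887 reads) and 80.8% in replicate 2 (861 reads). A chain counted as complete for any annotated transcript, short ones included. The 60 and 71 reads of the short P2ry12-205 are therefore among them, though its only intron is also the last intron of longer P2ry12 transcripts. A further 86 and 121 reads held part of an annotated chain, 50 and 62 had a single exon, and 17 and 22 were spliced in another way. The reads fell on 56 transcript models in replicate 1 and 71 in replicate 2, of which 17 and 18 were annotated transcripts, and 22 and 21 rested on a single read.

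The share of reads on annotated transcripts separated the genes. It was 98.0% in replicate 1 and 98.1% in replicate 2 for Tyrobp, 192 of 198 reads and 175 of 186 for C1qb, and 95.5% in each library for Trem2. It was 76.5% and 80.7% for C1qa, 79.5% and 82.7% for C1qc, 90.3% and 82.6% for P2ry12, and 78.9% and 77.8% for Tmem119. The lowest shares were 64.0% and 36.0% for Cx3cr1 and 51.2% and 36.7% for Csf1r. Csf1r and Cx3cr1 also had the longest leading transcripts of the 10, at 4701 and 3753 bases, and those of Tyrobp, C1qb and Trem2 ran from 597 to 1088 bases. The median share over the members was 82.8%, and over all 6644 genes with at least 20 reads in each library it was 63.8%. Among those genes the median was 83.0% where the leading transcript was under 2000 bases and 18.4% where it had at least 4000 bases. The median length of the leading transcript was 1145.5 bases in the members and 2649 bases in all genes tested, and the median GC content of these transcripts was 56.1% and 50.3%. Counted on annotated transcripts alone, Csf1r was at 16.5 CPM and Cx3cr1 at 9.57 CPM.

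**Figure D3:**
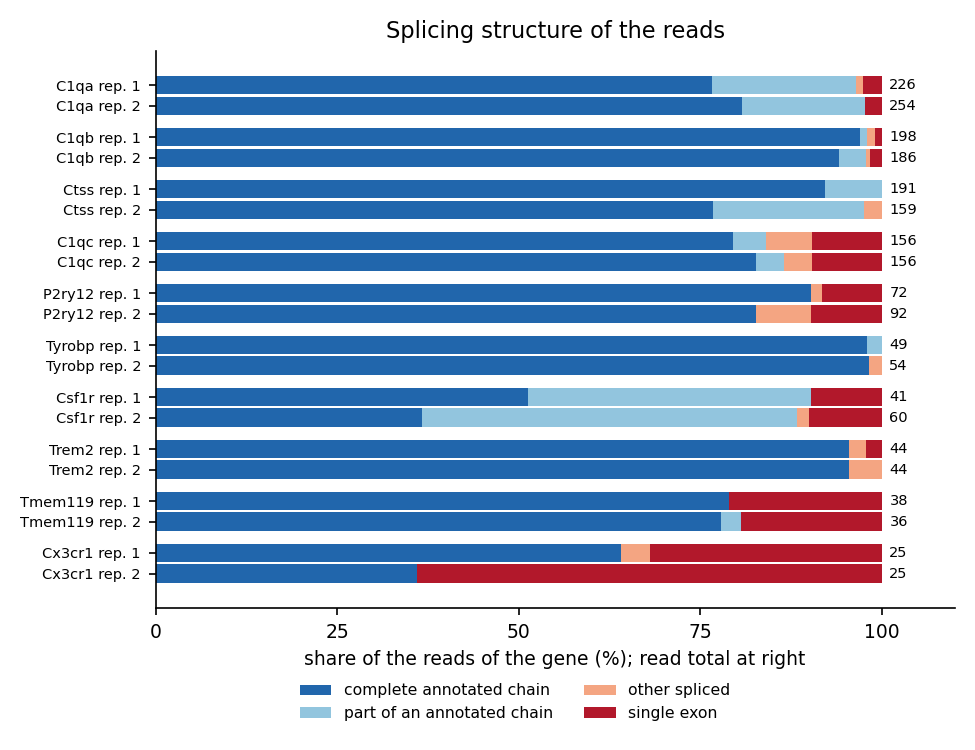
Share of the reads of each gene in each library whose introns form a complete annotated chain, part of one, another spliced structure or no intron at all, with the read total at the right. Complete chains fill nearly the whole bar for Tyrobp, C1qb and Trem2, while Csf1r has a large partial share and Cx3cr1 a large single-exon share.

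The share of reads on annotated transcripts was called different between the libraries for 1 of the 10 genes, Ctss, by Fisher's exact test with adjustment over 6644 genes, against a background of 8.76% of genes called. For Ctss 176 of 191 reads in replicate 1 and 122 of 159 in replicate 2 were on annotated transcripts (92.1% and 76.7%; adjusted p = 0.00147 by Fisher's exact test). The intervals of the shares, 87.4 to 95.5% and 69.4 to 83.1% (95% Clopper-Pearson), did not overlap. Reads holding only the first introns of the Ctss chain numbered 3 in replicate 1 and 15 in replicate 2, and reads holding only the last introns numbered 12 and 17. For Cx3cr1 the shares of 16 of 25 and 9 of 25 reads were not called different (adjusted p = 0.420 by Fisher's exact test), and neither were those of Csf1r (adjusted p = 0.578 by Fisher's exact test).

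Support for the introns of Csf1r was highest at the last intron and lowest at the first. Intron 20, the last, was spliced out in 37 of 41 reads in replicate 1 and 52 of 60 in replicate 2 (90.2% and 86.7%). Intron 10, with 2983 spliced bases left to the annotated 3′ end, was spliced out in 26 and 32 reads (63.4% and 53.3%), and intron 1, with 4554 bases left, in 21 of 41 and 24 of 60 reads. Replicate 2 was lower at all 20 introns, but these were counted on the same reads and are not separate observations. The difference at single introns was not tested. The reads that lacked part of the chain were nearly all without its 5′ introns, 16 in replicate 1 and 30 in replicate 2, and 1 read in replicate 2 lacked the 3′ introns. Ctss, with its first intron only 1215 bases from the 3′ end, showed no such slope. Its introns 2 to 7 were each spliced out in 96.9 to 99.0% of reads in replicate 1 and 88.1 to 94.3% in replicate 2, and among these replicate 2 was lowest at the last 2 introns, 6 (140 reads) and 7 (142 reads). Models outside the annotation often ended at annotated ends, so the length of single reads was not measured.

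**Figure D4:**
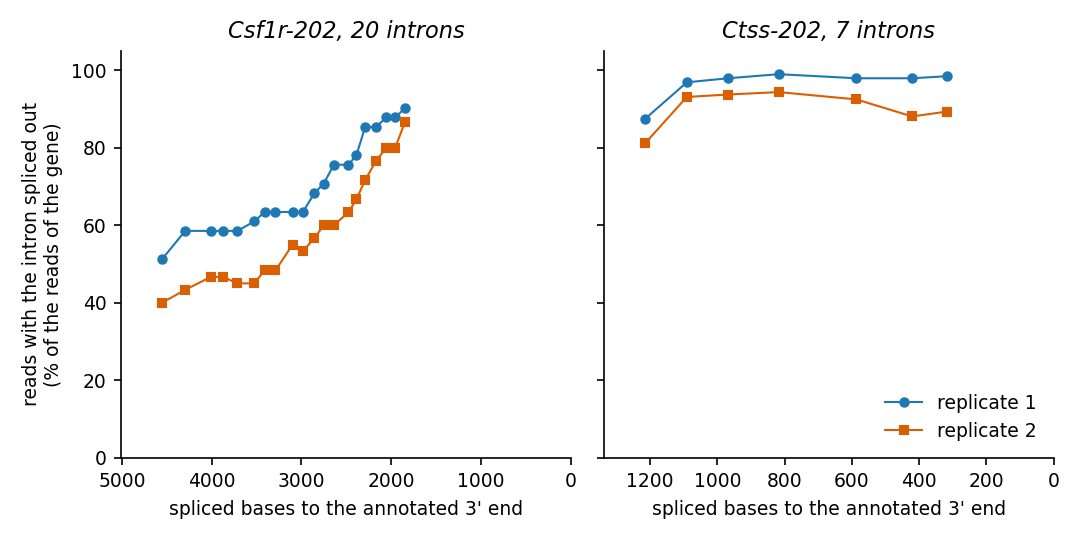
Share of the reads of a gene with each intron of its leading transcript spliced out, against the spliced bases left to the annotated 3′ end, for Csf1r (20 introns) and Ctss (7 introns), with circles for replicate 1 and squares for replicate 2. Csf1r climbs from 21 of 41 and 24 of 60 reads at intron 1 to 90.2% and 86.7% at intron 20, while Ctss stays high throughout and dips at intron 1, where an alternative splice site takes part of the reads.

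P2ry12 reads were assigned mainly to its shortest annotated transcript. P2ry12-205 (chr3:59217905-59220200, 2 exons, 619 bases, 116 codons) took 60 of 65 annotated reads in replicate 1 and 71 of 76 in replicate 2 (92.3% and 93.4%). The annotated 3′ end of P2ry12-205, at position 59217905, lies short of those of the other 4 transcripts, at 59216272 to 59216361. Its annotated coding part has 348 bases, and whether that part ends in a stop codon was not examined. The transcripts that code for the whole receptor of 347 codons had 5 reads in each library: P2ry12-204 had 2 and 3, P2ry12-202 had 1 and 2, P2ry12-201 had 2 and 0, and P2ry12-203 had none. The single intron of P2ry12-205 (chr3:59218257-59219933) is also the last intron of the other 4 transcripts. Reads of a short transcript and of an incomplete longer one therefore get the same name, and which of them these reads were was not tested. Reads that reached the far first exon, whose intron ends at position 59262773, numbered 5 in replicate 1 and 9 in replicate 2. Of these, 3 reads in replicate 2 joined it at position 59220284, a junction outside the annotation.

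Ctss and Trem2 each had a pair of acceptor sites in use. In Ctss the start of exon 2 shifts by 3 bases between Ctss-202 (exon at chr3:95529437-95529560, 340 codons) and Ctss-201 (exon at chr3:95529434-95529560, 341 codons), so the longer form gains a codon and keeps its frame. In Trem2 the start of exon 4 shifts by 55 bases between Trem2-201 (exon at chr17:48351746-48351930, 227 codons) and Trem2-202 (exon at chr17:48351691-48351930, 249 codons), and 55 is not a multiple of 3, so the frame changes. The coding sequences across these junctions, from GENCODE M21 on the plus strand, are shown with 24 bases on either side and the extra bases in capitals.
Ctss-202: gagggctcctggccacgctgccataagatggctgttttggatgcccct
Ctss-201: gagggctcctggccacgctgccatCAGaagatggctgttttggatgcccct
Trem2-201: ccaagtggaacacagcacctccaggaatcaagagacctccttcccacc
Trem2-202: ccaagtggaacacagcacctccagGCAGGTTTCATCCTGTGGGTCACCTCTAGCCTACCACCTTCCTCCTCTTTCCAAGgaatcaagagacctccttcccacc
Ctss-202 had 165 reads in replicate 1 and 113 in replicate 2, and Ctss-201 had 11 and 9. Over all models, the upstream Ctss site took 6.70% of reads at this junction in replicate 1 (3.51 to 11.4%, 95% Clopper-Pearson) and 7.86% in the other library (3.99 to 13.6%), and the shares lay within each other's intervals. Trem2-201 had 32 and 35 reads, and Trem2-202 had 9 and 4. Over all models, the upstream Trem2 site took 23.3% in replicate 1 (11.8 to 38.6%) and 9.09% in replicate 2 (2.53 to 21.7%), with intervals that overlap. Of the 6 members with at least 2 annotated transcripts seen and 20 annotated reads in each library, 0 were called for the share of the leading transcript by Fisher's exact test, against 1.75% of 2572 genes, and the adjusted p was 1 for all 6. The retained-intron transcript Trem2-203 had 1 read in replicate 1 and 3 in replicate 2.

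The other members had 1 dominant annotated transcript. It was Tyrobp-202 with 47 and 52 reads, which has the same introns as Tyrobp-201 and was not told apart from it by splicing. It was Csf1r-202 with 21 reads in each library, Tmem119-201 with 30 and 27, Cx3cr1-201 with 16 and 9, and C1qa-201, C1qb-201 and C1qc-201 with all annotated reads of their genes.

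Incomplete and unspliced reads were concentrated in certain genes. A 2-exon C1qa model that begins at exon 2 (chr4:136895917-136897844) had 45 of 226 reads in replicate 1 and 43 of 254 in replicate 2 (19.9% and 16.9%), and C1qb had 2 and 7 reads of the same kind. In C1qc a single-exon model (chr4:136889157-136890599), which runs past the annotated 3′ end at 136889804, had 15 reads in each library. The deposited class of that model was incomplete match in replicate 1 and genomic in replicate 2. Single-exon reads made up 8 and 16 of the 25 Cx3cr1 reads, 8 and 7 of the Tmem119 reads, and 6 and 9 of the P2ry12 reads. Of 20 intron chains outside the annotation, 2 were seen in both libraries. One was in C1qc, with a donor 50 bases into intron 1 (intron chr4:136892564-136892793), and had 9 reads in replicate 1 and 6 in replicate 2. The other was a chain of 4 introns in P2ry12 with 1 and 3 reads.

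Overlapping genes touched the count of 1 member above all. The last exon of Csf1r overlaps Hmgxb3 on the opposite strand by 873 exon bases, and Hmgxb3 had 27 reads in replicate 1 and 21 in replicate 2. How strand was assigned is not given in the sources used here, so the 4 and 6 single-exon reads of Csf1r are uncertain, while its spliced reads are placed by their introns. The overlap of P2ry12 with Med12l was 9 exon bases. A sequence search at 97% identity over at least 200 bases found no near copy of any member other than this overlap. Reads on the opposite strand of a member with no annotated gene there were limited to 1, at C1qc in replicate 1.

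Promoter sequence was at hand for 6 of the 10 genes (C1qb, C1qc, Ctss, Cx3cr1, P2ry12 and Trem2), in windows of 250 bases before to 50 after the RefSeq start. PU.1, encoded by Spi1, is the factor that directs the myeloid lineage and binds purine-rich sites with a GGAA core. The motif searched, GAGGAAGT on either strand, was chosen after these sequences had been read. It was in 2 of the 6 windows, Ctss and C1qc, and in 1052 of 32851 promoters (3.20%). The 30 bases around each match (RefSeq, GRCm38.p6) are given on the strand of the gene with the match, here its reverse complement, in capitals. The Ctss window is chr3:95526773-95526802 on the plus strand and spans the start. The C1qc window is chr4:136893091-136893120 on the minus strand, with the match 187 bases before the RefSeq start. The GENCODE M21 start of C1qc-201, at 136893065, is another position and lies nearer the match.
Ctss: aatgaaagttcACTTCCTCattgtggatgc
C1qc: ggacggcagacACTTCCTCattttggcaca
A match describes letters only, and binding was not measured in these libraries.

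Further markers of microglia and markers of other immune cells were summed in the same way. A further 18 microglial genes summed to 693 ± 31.7 CPM (SD, n = 2), among them Fcrls at 49.0 ± 4.27 CPM and Selplg at 40.6 ± 2.22 CPM. Of the 15 tested, 1 was lower in replicate 2, Laptm5, a lysosomal membrane protein (67 and 33 reads, log2 ratio -1.01, adjusted p = 0.0100 by the exact test). Another was higher, Cd53, a tetraspanin of leukocytes (5 and 20 reads, log2 ratio 1.90, adjusted p = 0.0235 by the exact test). Over all genes 5.44% were lower and 1.61% higher. The median log2 ratio of the list was 0.11, against 0.0025 for all genes.

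The macrophages of the brain borders share several of the 10 genes with microglia, Csf1r, the C1q genes, Ctss and Tyrobp among them. The 10 markers of border macrophages summed to 22 and 20 reads, or 16.1 ± 1.063 CPM (SD, n = 2). Pf4 had 7 and 5 reads, Stab1 had 5 and 3, F13a1 had 2 and 3, and Siglec1 had 0 in both. The 9 markers of monocytes and neutrophils had 2 reads and 1 read in all, from S100a9 and S100a8, and Ccr2, Ly6c2, Plac8, Chil3, Retnlg and Camp were at 0 in both libraries. The 10 markers of lymphocytes had 6 and 3 reads in all, mainly from Trbc2, and Cd3g, Cd2, Cd79a, Ms4a1 and Nkg7 were at 0. The part of border macrophages in the level of the 10 genes was not tested.

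**Figure D5:**
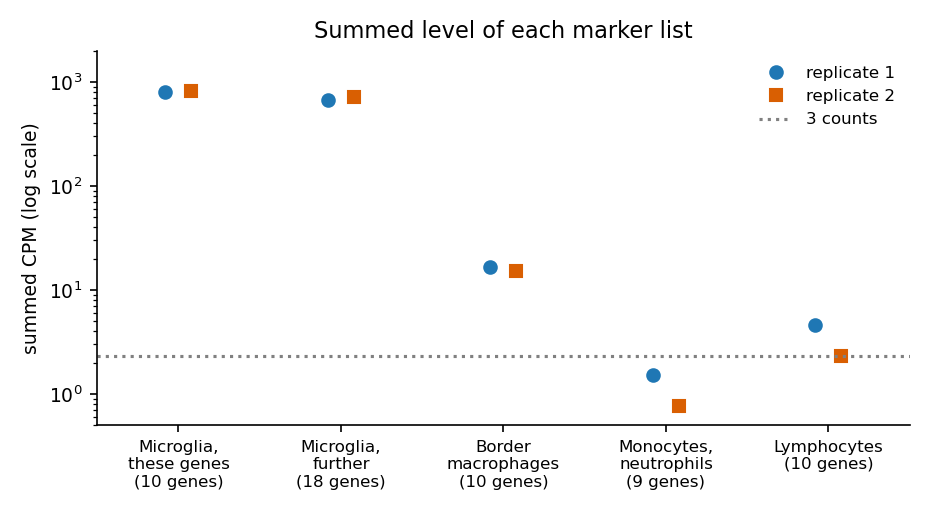
Summed CPM of 5 marker lists on a log scale in replicate 1 (circles) and replicate 2 (squares), with a dotted line at 3 counts. The 10 microglia genes sum to 796 and 817 CPM and the further microglial list to 671 and 715 CPM, while border macrophage markers reach 16.8 and 15.3 CPM and the other lists reach at most 4.59 CPM.

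Partners of C1q were represented unevenly. The complement list of 17 genes summed to 591 ± 22.4 CPM (SD, n = 2), most of it Clu, the chaperone clusterin, at 497 ± 38.5 CPM, followed by Cr1l at 31.0 ± 1.59 CPM and Serping1, the inhibitor of C1r and C1s, at 17.2 ± 8.10 CPM. Genes of the proteases that C1q activates and of the central component C3 were named after their values were seen. C1ra had 2 reads in replicate 1 and 4 in replicate 2, C1s1 had 0 in both, and C3 had 1 in each. Of the 6 complement genes tested none was called, against 7.05% of all genes. Their median log2 ratio was -0.13, against 0.0025 for all genes.

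Among the ligands and signalling partners of the receptors, Apoe, a ligand of Trem2 made largely by astrocytes, dominated with 9976 and 7826 reads, or 6819 ± 1156 CPM (SD, n = 2). Cx3cl1, the fractalkine that Cx3cr1 binds, had 213 and 126 reads, or 130 ± 47.0 CPM, and Il34, the neuronal ligand of Csf1r, had 59 and 61 reads, or 46.0 ± 1.14 CPM. Csf1, the other ligand of Csf1r and named after its value was seen, had 4 and 6 reads. Cx3cl1 differed in log2 ratio by -0.75 (adjusted p = 5.85e-05 by the exact test) and Apoe by -0.35 (adjusted p = 2.85e-55 by the exact test), both short of the size needed for a call. An adjusted p under 0.05 with no limit on size was reached by 12.8% of all genes. None of the 6 genes tested from this list was called, against 7.05% of all genes. Their median log2 ratio was -0.15, against 0.0025 for all genes.

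The purinergic relatives of P2ry12 summed to 84.7 ± 4.77 CPM (SD, n = 2) over 7 genes, led by P2rx4, an ATP-gated channel, at 33.3 ± 0.5004 CPM, Gpr34 at 24.9 ± 4.91 CPM and Entpd1, the ectoenzyme that breaks down ATP and ADP, at 11.5 ± 5.40 CPM. None of the 5 tested was called, against 7.05% of all genes. Their median log2 ratio was -0.03, against 0.0025 for all genes.

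The 10 transcription factors of microglia summed to 188 ± 52.2 CPM (SD, n = 2), of which Bhlhe41 gave 84.7 ± 26.6 CPM and Mef2a 75.9 ± 30.4 CPM, and Mef2a is also expressed in neurons. Which cells the reads of Bhlhe41 or Mef2a came from was not tested, so most of this sum cannot be assigned to microglia. Spi1 and Irf8, named after their values were seen, had 12 and 7 reads and 4 and 10 reads in the 2 libraries. None of the 5 tested was called, against 7.05% of all genes. Their median log2 ratio was 0.65, against 0.0025 for all genes. Bhlhe41 and Mef2a were higher in replicate 2 at adjusted p = 0.0107 and 0.00106 by the exact test, with log2 ratios of 0.65 and 0.84, under the size limit.

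The 14 cathepsins and cystatins, relatives and inhibitors of cathepsin S, summed to 9226 ± 2005 CPM (SD, n = 2), led by the protease inhibitor Cst3 at 7182 ± 1705 CPM, Ctsb at 716 ± 73.9 CPM and Ctsd at 555 ± 207 CPM, which other brain cells also express. None of the 13 tested was called, against 7.05% of all genes. Their median log2 ratio was -0.21, against 0.0025 for all genes. Cst3, Ctsb and Ctsd had log2 ratios of -0.49 (adjusted p = 1.95e-114 by the exact test), -0.21 (adjusted p = 0.0170 by the exact test) and -0.78 (adjusted p = 5.27e-22 by the exact test), all under the size limit.

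Genes that microglia raise around plaques and in development were uneven. The 14 genes of this list summed to 388 ± 10.4 CPM (SD, n = 2), led by Cd9 at 119 ± 17.2 CPM, Cd63 at 108.4 ± 8.26 CPM and Fabp5 at 95.8 ± 4.45 CPM, none of which is particular to microglia. Clec7a had 0 reads in both libraries. Itgax, Cst7, Ccl4 and Gpnmb, named after their values were seen, had 1 read each over both. The remaining genes of the list, also named after their values were seen, lay between. Lpl had 31 reads in replicate 1 and 35 in replicate 2, Spp1 had 31 and 26, and Axl had 13 and 9. Ccl6 had 7 and 4 reads, Ch25h had 4 and 3, and Ccl3 had 1 in each library. None of the 7 tested was called, against 7.05% of all genes. Their median log2 ratio was -0.25, against 0.0025 for all genes.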

How the data were processed

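Total RNA from left cerebral cortex gave 2 long-read libraries of 1 group. The deposited tables hold counts, whole reads that the authors assigned to transcript models, and, per the file headers, other values (exon number and length). Per the deposited notes and files, models carry TALON attributes on mm10 and GENCODE M21. Aligner, filters and versions: not given in the sources used here. Counts were summed per gene and scaled to CPM by the totals of 1306424 and 1304133 reads. With 1 group of 2 no replicate-based model is possible. Genes with at least 10 counts were compared by exact binomial tests (log2 ratios with 0.5 counts added), and shares with at least 20 reads in each library by Fisher's exact test, with Benjamini-Hochberg adjustment over all genes (scipy 1.17.1). These tests cover counting error only and were tested on simulated data. edgeR 4.0.16 and DESeq2 1.42.0 supplied alternative scaling factors only. Read structure came from the intron chains of the deposited models, overlaps from bedtools 2.31.1 and near copies from blastn 2.17.0. The members and lists were chosen with earlier results of these data known. Named genes are all members and, of each other list, the 3 of highest mean CPM, those called and markers of other cells at 0; of each member, annotated transcripts with at least 5% of its annotated reads and the other models with most reads (at least 5), with some below these limits. Some genes that this rule takes are not reported here.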

Additional observations from a re-analysis of the deposited data

How the results depend on the processing

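No paired analysis was possible because the 2 libraries form a single group. No member was called different between the libraries under any of the 9 settings run for that test, the main one included. The sum of the members was 807 CPM, and 796 to 817 CPM with each library alone. It was 670 CPM on annotated transcripts only and 776 CPM without genomic models. The share of annotated-transcript reads was 80.8% to 85.3% with each library alone. The count of all genes higher in replicate 2 was 191, and 77 on annotated transcripts only and 117 with at least 50 counts. With all reads of a gene as the denominator, 1 member, Ctss, was called for its leading transcript share (a difference of -15.3 percentage points, adjusted p = 0.00899 by Fisher's exact test) beside 8.09% of all genes. This setting counts reads off annotated transcripts, as the share of annotated reads does. The difference of Ctss in that share was -15.4 percentage points, and -13.4 (adjusted p = 0.00387 by Fisher's exact test) without single-read models. The level on annotated transcripts only was 16.5 CPM for Csf1r (38.7 with all reads) and 9.57 CPM for Cx3cr1 (19.2 with all reads). On annotated transcripts only, the log2 ratio of Csf1r was 0.07 and that of Ctss -0.52 (adjusted p = 0.0157 by the exact test), under the size limit. The direction of 9 uncalled differences turned, all of them uncalled under the alternative too. The log2 ratio of Cx3cr1, 0.0025 with all reads, was -0.79 on annotated transcripts only, -0.88 without genomic models and -0.12 with all same-strand reads over its exons. TMM factors gave -0.023 for C1qc, Trem2 and Cx3cr1, and C1qc was at -0.13 without genomic models. The leading transcript share of P2ry12 differed by 1.11 percentage points, and by -6.16 with all reads of the gene as denominator. The annotated share of Tmem119 differed by -1.17 percentage points, and by 0.464 without single-read models. Of the other single-gene and single-class values, 152 met their criterion, 13 levels and class shares moved further and 1, the Ctss share above, became a call. For tested differences the criterion was the same call with no turn of direction, whatever the change in size. For levels and class shares it was a move within the SD of the libraries. A value from 1 library alone always meets that SD criterion, so the count of 152 is not a measure of stability. Where the libraries nearly tied, a small change counted as a move, as for Trem2 (33.7 CPM, and 33.3 CPM without genomic models, SD 0.0418 CPM). Genes under 10 counts in total were not compared. At this depth the exact interval of Cx3cr1, the least read member, ran from 0.552 to 1.82 for the ratio of the libraries.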
